A study of Mus musculus with 7 samples.

Results

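Of 1874 probes on a custom small RNA array, 13 recognise targets with the seeds of miR-132-3p and miR-212-3p (4 probes), miR-221-3p and miR-222-3p (3 probes), miR-210-3p (3 probes) or miR-214-3p (3 probes). A seed is bases 2 to 8 of a miRNA, the part that pairs with messenger RNA and by which miRNAs are grouped. The target of a probe was read as the reverse complement of its sequence without the last 10 T and a leading G. The rule reads the letters of the probes and uses no signal, although the seeds themselves were picked with earlier results of these data known.

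Small RNA was measured in mouse CD4 T cells carrying DO11.10, a T cell receptor that recognises an ovalbumin peptide, in 3 groups on 7 arrays of 1 slide. The sOVA host group (3 arrays) holds CD44 high cells sorted 5 days after transfer of Rag2-/- donor cells into sOVA mice, a strain that makes soluble ovalbumin as a self antigen. The WT host group (2 arrays) holds CD44 high cells treated in the same way in Balb/c mice described as WT. Both kinds of host were immunized 24 h after transfer with dendritic cells matured with LPS and loaded with the peptide. The titles, however, word the immunization of the hosts differently (OVA for WT hosts, sOVA for sOVA hosts), so host and immunization cannot be told apart. The naive group (2 arrays) holds CD25 negative, CD44 low cells from Rag2+/+ DO11.10 mice, so it differs from the activated groups in donor genotype and sort as well as in activation. All mice were Balb/c aged 6 to 8 weeks, with spleen and lymph nodes pooled. The protocol and design describe activation in the animal, although the series title says in vitro. The labels do not say that arrays of a group came from separate pools, so each p-value reflects only how far these arrays scatter, and that scatter may be technical. In sorted bulk cells, fewer cells of a type and less RNA per cell cannot be told apart.

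MicroRNAs lower the translation and stability of messenger RNAs that match their seed, and T cell activation is known to change the levels of many of them. The miR-132 and miR-212 genes lie together and are known in neurons and other cells as targets of the transcription factor CREB. The miR-221 and miR-222 genes also lie together, and their products are known from human tumour cells to repress the cell cycle inhibitor p27. miR-210 is induced by the hypoxia-inducible factor HIF-1 in many cell types. miR-214 is made from the non-coding transcript Dnm3os, which also carries miR-199a, and is abundant in mesenchymal cells.

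The mature mouse sequences (RefSeq, GRCm38.p6) are shown with their seeds in capitals, because the probes are grouped by them.
miR-132-3p: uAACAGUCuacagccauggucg
miR-212-3p: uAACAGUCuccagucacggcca
miR-221-3p: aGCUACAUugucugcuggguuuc
miR-222-3p: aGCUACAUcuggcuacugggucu
miR-210-3p: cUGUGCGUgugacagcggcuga
miR-214-3p: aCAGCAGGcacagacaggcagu

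miR-132-3p lies at chr11:75173723-75173744 on the plus strand, within the gene Mir132, and miR-212-3p at chr11:75173443-75173464 on the same strand, within Mir212. Their hairpins are 203 bases apart, and the mature sequences share 17 of 22 positions. miR-221-3p lies at chrX:19146307-19146329 on the minus strand, within Mir221, and miR-222-3p at chrX:19146901-19146923, within Mir222. Those hairpins are 504 bases apart, and the mature sequences share 11 of 23 positions. miR-210-3p lies at chr7:141221407-141221428 on the minus strand, within Mir210. miR-214-3p lies at chr1:162223438-162223459 on the plus strand, within Mir214, inside the span of the long non-coding RNA gene Dnm3os and of the protein-coding gene Dnm3.

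Of the 13 probes, 9 match one of these 6 miRNAs from the first base on, with the shorter sequence contained in the longer. The other 4 share the seed and differ elsewhere, 3 of them by few bases. The targets of these 4 are written as DNA with the seed in capitals, to show how far they depart from the mouse miRNA.
UC1005268: tAACAGTCtacagtcatggct
UC1005262: cTGTGCGTgtgacagcggctaa
UC1005264: tTGTGCGTgtgacagcggcta
UC1006142: gCAGCAGGgtgaaactgacaca

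Substitutions are counted from 1 at the 5′ end, with the base of the mouse miRNA first and that of the probe's target last. UC1005268 departs from miR-132-3p by C14T, T20C and C21T. UC1005262 departs from miR-210-3p by G21A, and UC1005264 by C1T and G21A, with a target 1 base shorter (21 of 22). UC1006142 equals another mouse miRNA, miR-761, and departs from miR-214-3p at 9 positions. RefSeq also lists miR-1928 with the seed of miR-221 and miR-222, and no probe equals it. No probe outside the 13 came within 3 substitutions of any of their targets.

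Each probe was printed in 7 spots. Levels are given as log2 of the spot signal relative to the 75th percentile of that array, taken over the 253 probes that every array detected, so that 0 is the level of that percentile. A probe counted as detected where at least 50% of its spots were well above background. Of the 13 probes, 4 were detected on all 7 arrays, 7 on some and 2 on none. The SD of log2 signal between spots of 1 probe on 1 array ran from 0.039 to 0.18 where the probe was detected. The 75th percentile itself was 9860, 11114 and 2729 signal units on sOVA host arrays 1 to 3, 9281 and 3591 on WT host arrays 1 and 2, and 11868 and 15743 on naive arrays 1 and 2. The dimmest arrays were thus sOVA host replicate 3 and WT host replicate 2. The number of arrays limits the precision of all values. MiRNAs used as T cell markers (miR-142a and miR-181a, read by seed as 8 features) were detected on every array, with 5 to 8 of the 8 features detected.

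Probes with nested targets were merged into 1 feature, represented by the brighter probe, which made 10 features of the 13 probes. A feature was tested where all arrays of some group detected it. This held for 342 features of the array and for 6 of the 10. Of these 6, the features of miR-132-3p, miR-221-3p and miR-222-3p were detected on all arrays. The miR-214-3p feature passed through the WT host and naive arrays. The miR-212-3p feature and UC1005264 passed through the WT host arrays alone, the group in which they were highest, so their passing the filter favours a difference. Tests were limma fits over all 342 features with p-values adjusted by the Benjamini-Hochberg method and a threshold of 0.05.

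miR-221-3p and miR-222-3p were higher in activated cells of both hosts than in naive T cells. miR-221-3p (UC1005302) was at -3.00, -2.48 and -2.67 on the sOVA host arrays and -2.56 and -2.64 on the WT host arrays, against -4.37 and -4.22 on the naive arrays. Every activated array was above every naive array, and the hosts overlapped. The mean was -2.72 ± 0.27 in sOVA hosts (SD, n = 3) and -2.60 ± 0.06 in WT hosts (SD, n = 2), against -4.29 ± 0.11 in naive cells (SD, n = 2). The difference from naive was 2.98-fold in sOVA hosts (adjusted p = 0.0143, limma) and 3.24-fold in WT hosts (adjusted p = 0.0114, limma).

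miR-222-3p (UC1005304, with a target that ends before the last bases of the miRNA) was at -4.01, -3.51 and -4.00 on the sOVA host arrays and -3.59 and -3.73 on the WT host arrays, against -5.88 and -5.67 on the naive arrays. It was 3.82-fold higher in sOVA hosts than in naive T cells (adjusted p = 0.00856, limma) and 4.33-fold in WT hosts (adjusted p = 0.0064, limma). A second probe for miR-222-3p, UC1005305, whose target is 24 bases long, was at -3.99, -3.53 and -3.88 in sOVA hosts and -3.61 and -3.68 in WT hosts, against -5.87 and -5.89 in naive cells. Probes for the same miRNA can bind the same molecules and are not independent measurements.

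Before scaling, the signal of miR-221-3p was 1229, 1995 and 429 units on the sOVA host arrays and 1578 and 577 on the WT host arrays, against 574 and 847 on the naive arrays. On the 2 dimmest arrays, sOVA host replicate 3 and WT host replicate 2, the unscaled signal was therefore within or below the naive range. The higher level there rests on the scaling. The same held for miR-222-3p (UC1005304). It read 170 units on sOVA host replicate 3 and 270 on WT host replicate 2, against 201 and 309 on the naive arrays. The slide placed 4 arrays in row 1 and 3 in row 2. Within rows 1 and 2, the log2 differences of miR-221-3p from naive were 1.63 and 1.55 for sOVA hosts and 1.81 and 1.58 for WT hosts. Those of miR-222-3p were 2.12 and 1.67 for sOVA hosts and 2.29 and 1.94 for WT hosts. Row 2 holds 1 array of each group.

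miR-132-3p was detected on every array and was also higher in both kinds of host than in naive T cells. Its level (UC1005056) was -4.99, -5.41 and -4.21 on the sOVA host arrays and -4.36 and -3.82 on the WT host arrays, against -6.83 and -6.33 on the naive arrays. The groups of activated arrays lay above the naive arrays and overlapped each other. The mean was -4.87 ± 0.61 in sOVA hosts (SD, n = 3) and -4.09 ± 0.38 in WT hosts (SD, n = 2), against -6.58 ± 0.35 in naive cells (SD, n = 2). This was 3.27-fold in sOVA hosts (adjusted p = 0.0356, limma) and 5.60-fold in WT hosts (adjusted p = 0.0149, limma). Within rows 1 and 2 the log2 differences were 1.63 and 2.12 for sOVA hosts and 2.46 and 2.51 for WT hosts. Before scaling, the signal of miR-132-3p was 147 units on sOVA host replicate 3, within the naive range of 105 to 196. The higher level on that array therefore rests on the scaling. In sOVA hosts the call was lost when the values were quantile normalized (log2 change 1.19, adjusted p = 0.0678, limma) or background-corrected with normexp (1.51, adjusted p = 0.0642, limma). It was also lost without sOVA host replicate 1 (log2 change 1.77, adjusted p = 0.0774, limma). Without WT host replicate 1 or 2 the change was 1.71 as before and the call was lost too (adjusted p = 0.0627 and 0.0616, limma).

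miR-212-3p, the neighbour of miR-132-3p, was measured near background. Its brighter probe (UC1005270) was at -6.80, -7.00 and -5.65 on the sOVA host arrays and -6.10 and -5.31 on the WT host arrays, against -7.90 and -8.13 on the naive arrays. It was detected on both WT host arrays, on sOVA host replicate 2 and on naive replicate 2. The scaled level was higher on all activated arrays than on both naive arrays. Before scaling, the probe read 54.5 units on sOVA host replicate 3, against 49.8 and 56.2 on the naive arrays. The higher level on that array therefore rests on the scaling. The difference of the measured means from naive was 4.95-fold in WT hosts (adjusted p = 0.0298, limma). That test is favoured by the probe passing the filter through the WT host arrays alone, and its size includes naive replicate 1, where the probe was not detected. In sOVA hosts the log2 change was 1.53 with a 95% interval of 0.35 to 2.71, which did not pass (adjusted p = 0.0688, limma), and it passed with slide row as a block (log2 change 1.64, adjusted p = 0.0225, limma) or without sOVA host replicate 3 (log2 change 1.12, adjusted p = 0.043, limma). The call in WT hosts was lost under normexp (adjusted p = 0.108, limma) or without sOVA host replicate 1 (adjusted p = 0.0526, limma). Within rows 1 and 2 the differences were 1.00 and 2.48 for sOVA hosts and 1.80 and 2.82 for WT hosts. The second probe, UC1005269, whose target lacks the last base, was detected on the WT host arrays only. Its WT host mean was at least 2.57-fold above the naive arrays, where the naive side is the higher of the probe's own signal and the lowest signal well above background on each array.

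UC1005268, which departs from miR-132-3p at 3 positions, was detected on no array. All of its spots were set by the scanner software to the array's surrogate value, the floor used for spots not distinguishable from background. The same floor applied to the miR-761 probe UC1006142, in 86% to 100% of its spots. Levels of these 2 probes therefore carry no order between groups.

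The scaled level of the miR-210 seed was higher in activated than in naive T cells on all 3 of its probes. Most of these values, however, were not well above background. The mouse miR-210-3p probe (UC1005263) was at -6.84, -6.95 and -6.81 on the sOVA host arrays and -6.003 and -6.10 on the WT host arrays, against -8.77 and -8.77 on the naive arrays. It was detected on sOVA host replicate 2 and WT host replicate 1 and on neither naive array. The probe did not pass the filter, since WT host replicate 2 had 2 of 7 spots well above background, and it was not tested. On sOVA host arrays 1 and 3 the lowest signal well above background was -5.82 and -5.20, above the level of the probe. Before scaling, the 3 probes read 24.4 to 32.0 units on sOVA host replicate 3, against 27.3 to 46.4 on the naive arrays, so the higher level on that array rests on the scaling.

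UC1005264, with the substitutions C1T and G21A, passed the filter narrowly, with 4 of 7 spots well above background on WT host replicate 2. Its level there, -6.11, was the lowest of any probe detected on that array. UC1005262 and UC1005263 were slightly brighter there, at -6.06 and -6.10, and were not detected. UC1005264 was at -6.57, -6.84 and -6.70 in sOVA hosts and -5.90 and -6.11 in WT hosts, against -8.54 and -8.41 in naive cells. It was detected on 1 of 3 sOVA host arrays, both WT host arrays and neither naive array. The fit called it in sOVA hosts (adjusted p = 0.00718, limma), largely on values not well above background. Log2 changes given for it in sOVA hosts are therefore not exact sizes. In WT hosts it was at least 3.05-fold above naive, a bound taken as for UC1005269 and not itself tested. The fit called the measured difference (adjusted p = 0.00235, limma), which uses naive values not well above background. That test is favoured by the probe passing the filter through the WT host arrays alone. UC1005262, with G21A alone, was at -6.66, -6.88 and -6.41 in sOVA hosts and -5.91 and -6.06 in WT hosts, against -8.56 and -8.53 in naive cells. In sOVA hosts the call of UC1005264 was lost under quantile normalization (log2 change 0.98, adjusted p = 0.125, limma) and under normexp (1.41, adjusted p = 0.0515, limma). The 3 probes can bind the same molecules. Within rows 1 and 2 the measured differences of UC1005264 from naive were 1.84 and 1.71 for sOVA hosts and 2.64 and 2.29 for WT hosts. Their sizes are not exact, since neither naive array detected the probe, and in row 2 the sOVA host array did not either.

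Altogether, 4 of the 6 tested features rose in sOVA hosts, where 15.5% of all 342 tested features were called higher (limma). In WT hosts 5 of the 6 rose, where 12.9% of all were called higher. None of the 6 fell, where 5.56% and 5.85% of all features were called lower. In both comparisons 5 of the 6 had every activated array above every naive array, as had 32.2% of all features in sOVA hosts and 44.4% in WT hosts. For miR-212-3p and UC1005264 this order includes values not well above background. The median log2 change of the 6 was 1.64 in sOVA hosts, beside 0.11 over all tested features, and 2.21 in WT hosts, beside 0.27. These counts and medians are a description only. Of the 6, 2 entered through the WT host arrays alone, and the seeds were picked with earlier results of these data known. The fit over the 214 features detected on all arrays is the narrower view, and the choice of seeds limits it too. There all 3 members (miR-132-3p, miR-221-3p and miR-222-3p) rose in sOVA hosts, where 13.1% of features were called higher, and in WT hosts, where 9.35% were. The comparisons with naive cells share the 2 naive arrays and are thus not independent.

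These calls depend on the scale and on single arrays. Each array detected 309 to 467 of all 1874 probes, so the 75th percentile over all probes fell near or below the limit of detection. Scaling to that percentile moved the median change of all tested features to -0.70 in sOVA hosts and -0.24 in WT hosts. It turned the split of calls to 24 higher and 44 lower in sOVA hosts, where the scaling used here gave 53 and 19, and to 19 higher and 20 lower in WT hosts, where it gave 44 and 20. Under that scaling the members kept positive log2 changes and none was called. The changes in sOVA hosts were 0.76 for miR-221-3p, 1.12 for miR-222-3p, 0.89 for miR-132-3p, 0.71 for miR-212-3p, 0.96 for UC1005264 and 0.29 for miR-214-3p. In WT hosts they were 1.18 for miR-221-3p, 1.60 for miR-222-3p, 1.97 for miR-132-3p, 1.79 for miR-212-3p, 1.95 for UC1005264 and 0.01 for miR-214-3p. miR-221-3p and miR-222-3p were called in both comparisons when arrays were scaled by the median, quantile normalized or corrected with normexp.

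Leaving out naive replicate 1 ended every member's call. Leaving out naive replicate 2 ended every call except that of UC1005264 in WT hosts (log2 change 2.54). Without WT host replicate 1, UC1005264 alone held its call in WT hosts (log2 change 2.36). The log2 changes there were 2.04 for miR-222-3p, 2.76 for miR-132-3p, 1.65 for miR-221-3p and 2.70 for miR-212-3p. These calls do not make UC1005264 the firmest member. It passed the filter through WT host arrays alone, which favours a difference, and neither naive array detected it. Without WT host replicate 1 it passed on 1 array, with 4 of 7 spots well above background. Without WT host replicate 2 the call in WT hosts was lost for miR-132-3p (adjusted p = 0.105, limma), miR-221-3p (adjusted p = 0.0741, limma) and miR-212-3p (adjusted p = 0.17, limma). A lone array is assumed to vary like the other groups. With all 1753 features tested and no filter on dim probes, no member was called. The 6 features then had adjusted p from 0.0756 to 0.283 in sOVA hosts and from 0.203 to 0.658 in WT hosts (limma).

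miR-214-3p differed more between arrays of 1 group than between groups. The brighter of its probes (UC1005271, without the last base) was at -5.47, -7.08 and -3.43 on the sOVA host arrays and -6.32 and -5.50 on the WT host arrays, against -6.86 and -6.01 on the naive arrays. All 3 groups overlapped, and sOVA host replicate 3 was the highest array while replicate 2 was the lowest. The log2 change from naive was 1.11 in sOVA hosts with a 95% interval of -1.37 to 3.59 (adjusted p = 0.439, limma). In WT hosts it was 0.53 with an interval of -2.19 to 3.25 (adjusted p = 0.738, limma). The change in sOVA hosts was 0.16 when replicate 3 of that group was left out, and 1.98 when its replicate 2 was. Within rows 1 and 2 the differences were 0.59 and 2.58 for sOVA hosts and 0.54 and 0.52 for WT hosts. The full-length probe UC1005272 was at -5.63, -7.31 and -3.65 in sOVA hosts and -6.79 and -5.72 in WT hosts, against -7.29 and -6.49 in naive cells.

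An erythroid marker was also high on sOVA host replicate 3. The miR-451a seed feature was at -1.09, -4.12 and 0.94 on the sOVA host arrays and -3.33 and -1.80 on the WT host arrays, against -0.97 and -1.84 on the naive arrays. The erythroid list of 2 features (miR-451a and miR-144) summed to 5.91% to 192% of the array's 75th percentile in sOVA hosts and 10.1% to 29.0% in WT hosts, against 28.0% to 51.3% in naive cells, with miR-144 detected nowhere. The stromal list was read by the seeds of miR-199a, the partner of miR-214 on Dnm3os. Its 4 features were detected on no array. They summed to 0.61% to 4.29% in sOVA hosts, 0.60% to 1.55% in WT hosts and 0.33% to 0.64% in naive cells. Since none of these features was detected, the sums do not rank the groups. The brightest value of the list, -5.82 for the miR-199a-3p seed, was on sOVA host replicate 3. The lowest signal well above background on that array was -5.20. The part of other cells in the miR-214-3p values was not tested. On the same array miR-221-3p was at -2.67, within the range of the other activated arrays.

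Between the hosts, no member passed the test. limma called 0 of 342 features and 0 of the 6 members, a background of 0%. At an unadjusted p under 0.05 there were 41 features, 1 of them a member. That member was UC1005264 of the miR-210 seed, with a log2 difference of -0.70 between the measured means (adjusted p = 0.331, limma). It was not detected on sOVA host arrays 1 and 3, where the lowest signal well above background exceeded both WT host levels, so the hosts cannot be ranked for it. The intervals of sOVA host minus WT host were -0.76 to 0.52 for miR-221-3p, -0.84 to 0.49 for miR-222-3p, -1.82 to 0.27 for miR-132-3p, -1.96 to 0.41 for miR-212-3p and -1.90 to 3.06 for miR-214-3p. Differences inside these intervals cannot be told from none with 3 and 2 arrays. In order of mean level, miR-132-3p, miR-221-3p and miR-222-3p had the WT host first, the sOVA host second and naive cells last. The hosts overlapped for each of them, so the order of the hosts is not resolved. Before scaling, the host difference had the opposite sign for miR-221-3p (0.093) and miR-222-3p (0.033). miR-214-3p had the sOVA host first and the WT host second, with no neighbours in that order apart beyond their spread. Without sOVA host replicate 3, 70 features were called between the hosts (20.2% of those tested), and no member was among them.

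Of the other arms of these hairpins, those with a feature on the array were not detected. The seeds of miR-221-5p, miR-210-5p and miR-214-5p, with both arms of miR-199a, matched 7 features, none of which was detected on any array. The seeds of miR-132-5p and miR-212-5p matched no feature, and miR-222-5p was not looked up. A list of other miRNAs known to change with T cell activation (the seeds of miR-155, miR-21a, miR-146a, miR-31, miR-182, miR-183, miR-96, miR-17, miR-18a, miR-181a and miR-26a) gave 32 tested features. Of these, 15 rose and 2 fell in sOVA hosts (limma), where 15.5% of all tested features were called higher and 5.56% lower. In WT hosts 9 rose and 3 fell, where 12.9% of all were called higher and 5.85% lower. The median log2 change was 0.77 in sOVA hosts, beside 0.11 over all tested features, and 0.69 in WT hosts, beside 0.27. From this list and the T cell list, miR-150-5p was left out, since its sequence was not in the reference used. The 7 tested T cell marker features, which include the miR-181a seed of the first list, had 1 fall in sOVA hosts and 2 in WT hosts. Their list summed to 206% to 647% of the array's 75th percentile in sOVA hosts and 313% to 425% in WT hosts, against 932% to 1080% in naive cells. miR-223, a myeloid marker, summed to 1.03% to 3.16% in sOVA hosts and 1.24% to 2.08% in WT hosts. In naive cells it summed to 12.1% to 14.3%. It was not detected on sOVA host replicate 1 or WT host replicate 2, which gave the lowest values of their groups. The epithelial list (miR-200a, miR-200b, miR-200c and miR-205 seeds, 12 features) had 2 of 6 tested features fall in sOVA hosts and 4 of 6 in WT hosts. It summed to 8.02% to 12.8% in sOVA hosts and 4.72% to 5.38% in WT hosts, against 8.15% to 9.32% in naive cells, and none of it was detected on sOVA host replicate 3 or WT host replicate 2. The part of these shifts in the members' values was not tested.

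The array profiles most like those of miR-132-3p and miR-221-3p were sought among 211 other features detected on all arrays, as the smallest root mean square difference after each profile was centred on its own mean over the 7 arrays. For miR-132-3p the closest was miR-130b-3p (UC1005052) with 0.23 log2 units, followed by UC1005050 and UC1005051, which share the seed of miR-130 and miR-301, with 0.25 each, where the median over all features was 1.00. miR-130b-3p was at -2.90, -2.78 and -2.28 in sOVA hosts and -1.88 and -1.79 in WT hosts, against -4.55 and -4.20 in naive cells. For miR-221-3p the closest were miR-363-3p, miR-103-3p and miR-484 with 0.27 each, where the median was 0.83. No miR-210 or miR-214 probe was detected on all arrays, so none was given such neighbours.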

How the data were processed

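Per the file headers, the authors' scanner files give the Cy3 intensity of each spot in 1 colour, after the subtraction of local background and spatial detrending by Agilent Feature Extraction 9.5.1.1; arrays were not scaled to each other. The submitters' processing notes name version 10.6. The authors' deposited value table holds log2 values with nearly equal medians; its rows were not tied to the member probes, so only counts of calls were taken from it. Per the labels, 250 ng of RNA was extracted with Trizol and labelled with an Exiqon kit.

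Control and outlier spots were left out. Spot signals were averaged as log2 per probe and scaled as the report states. limma 3.58.1 in R 4.3.3 was fitted to all 7 arrays with group means, after a test on simulated data. Naming covered every member probe and the 3 nearest profiles for the brightest probe of a seed detected on all arrays. Members and lists were chosen with earlier results of these data known. Lists were read by seed from RefSeq, of whose mature sequences 497 probes held one exactly. Alternatives covered scaling, background correction, the filter, merging, slide row, replicate number and single arrays.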

Additional observations from a re-analysis of the deposited data

How the results depend on the processing

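With 2 or 3 arrays a group and signals near background for the miR-210 and miR-212 probes, small differences could not be resolved. Counts below are limma calls at an adjusted p under 0.05 among all tested features. They were 72 for sOVA hosts against naive, 64 for WT hosts against naive and 0 between the hosts. For WT hosts against naive the count was 39 with the percentile over all probes, 41 with normexp, 16 with no filter, 25 with detection on all arrays and 109 with slide row as a block. For sOVA hosts against naive it was 25 with no filter, 34 with detection on all arrays and 125 with slide row as a block. No filter means 1753 features tested and detection on all arrays 214, where 342 were tested otherwise; the causes of the other differences were not tested. Quantile normalization split the calls in sOVA hosts into 34 higher and 28 lower, and median scaling those in WT hosts into 33 and 25. The member count in sOVA hosts was 4, and 0 with the percentile over all probes, 2 with quantile normalization, 2 with normexp and 0 with no filter. In WT hosts it was 5, and 0 with that percentile, 0 with no filter and 3 with detection on all arrays. The deposited value table gave 212, 225 and 126 calls in the same order of comparisons, over 1775 rows.

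Leaving out 1 array, or both dim arrays, gave 11 to 156 calls for sOVA hosts against naive, 12 to 160 for WT hosts against naive and 0 to 70 between the hosts. Member counts then ran from 0 to 7 in both comparisons with naive (7 of 8 tested without both dim arrays) and stayed at 0 between the hosts. The 156 calls over all features in sOVA hosts come from that same fit, in which 370 features were tested. It leaves 1 WT host array, and detection on that array alone is enough to pass the filter. UC1005262 and UC1005263 entered in this way and were detected on neither naive array, which favours a difference. The 7 of 8 is therefore a description only. The log2 difference between the hosts ran from -0.37 to 1.45 for miR-214-3p, the lowest without sOVA host replicate 3, and from -0.24 to 0.024 for miR-221-3p, the highest without sOVA host replicate 1. It turned to 0.054 for miR-221-3p with median scaling. The miR-214-3p change in WT hosts against naive turned to -0.011 with quantile normalization. None of these reversed values was called, and the causes were not tested.

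With replicate number as a block, sOVA host replicate 3 has no partner and adds nothing, and the counts were 104, 139 and 27, with 4, 5 and 0 members called. The miR-214-3p difference between the hosts turned to -0.37 there. Whether the numbers pair the samples cannot be told from these values. Deviations from group means correlated at 0.35 for replicate 1 of both hosts and at -0.60 for replicate 2. With the naive array of the same number they correlated at 0.32 and -0.18 for sOVA hosts. For WT hosts the value was 0.19, and there number and slide row coincide. Arrays in the same slide row correlated at 0.18 to 0.61. In a group of 2 arrays the deviations mirror each other, so each negative value between rows repeats a positive one with its sign turned. The pairs are therefore not separate observations.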
